A study of Mus musculus with 2 samples.

Results

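Integrins, laminins and the proteins that join laminin to the rest of the basement membrane were compared between lung of Rosa26-Foxm1 mice and lung of wild-type mice after a chemical carcinogenesis protocol. Members were the genes whose symbol begins as an integrin alpha chain, an integrin beta chain or a laminin chain, together with the nidogens Nid1 and Nid2 and perlecan (Hspg2), among genes named by a probe of their own. That gave 31 of the 13840 named genes on the array. They comprise 5 leukocyte integrins (Itgal, Itgam, Itgae, Itgb2 and Itgb7), 14 other integrin subunits, 7 laminin chains, both nidogens, and 3 genes for proteins that bind integrin tails or carry such a name. No probe in the annotation used here carried Itgax or Hspg2 alone, and neither is analysed here. The same holds for Itgav, Itgb3, Itgb8, Lama3, Lama5 and Lamc1.

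One array was hybridised with lung RNA of Rosa26-Foxm1 mice and 1 with lung RNA of wild-type mice, each pooled from the left lobes of 3 mice 12 weeks after the carcinogen. Rosa26-Foxm1 mice carry a transgene of Foxm1, a forkhead transcription factor of the dividing cell, and the promoter of the Rosa26 locus is known to be active in most cell types. Strain and sex of these mice are not in the labels used here. The labels of the wild-type mice give strain FVB/N and male sex. Mice of both groups had received 1 intraperitoneal dose of 3-methylcholanthrene (MCA, 15 µg per g body weight), a polycyclic hydrocarbon carcinogen, and 6 weekly injections of the lung tumour promoter butylated hydroxytoluene (BHT), the first of 150 µg/g and the others of 200 µg/g. The labels do not say whether the lobes held tumours.

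Integrins are receptors of 1 alpha and 1 beta chain that bind cells to the extracellular matrix or to counter-receptors on other cells, and whose short tails are linked to actin by adaptors such as talin and kindlin. The leukocyte integrins, built on the beta chains Itgb2 and Itgb7, hold white blood cells to endothelium and epithelium. Laminins are trimers of an alpha, a beta and a gamma chain that polymerise into the sheet on which lung epithelium, endothelium and muscle rest, and nidogens tie that sheet to type IV collagen.

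Since each group had 1 array, the spread between mice is unknown and the genotypes cannot be tested against each other. The only error that the arrays hold is the probe SD, the SD of a log2 difference as judged from pairs of probes for the same gene, which was 0.31 over 317 genes (0.38 for dimmer and 0.23 for brighter pairs). It covers neither mice nor errors shared by the probes of an array. Each member has a single probe, so none has a second reading. Values are intensities after quantile normalisation, which gives both arrays the same distribution, and a probe below the median intensity of an array (the floor, 1.00) was not ranked below it. Of 31 members, 24 were measured, that is, brighter than the floor on 1 array or both, and 23 of them on both. In bulk lung, fewer cells of a type and less RNA per cell cannot be told apart. The lung epithelial markers Sftpc and Scgb1a1 were bright, at 859 and 1767 in Rosa26-Foxm1 lung and at 1228 and 2544 in wild-type lung. The log2 differences of the 17 measured epithelial markers had a median of -0.09, with 9 below 0 and 8 above. Foxm1 itself was near the floor, at 1.23 in Rosa26-Foxm1 and 1.13 in wild-type lung. Whether the Foxm1 probe reads the transcript of the transgene was not tested. The 9 proliferation genes ran from a log2 difference of -0.06 for Top2a to 1.15 for Birc5 and Aurka, and 4 were at least 1.5-fold higher, against 7.10% of all measured genes.

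Most integrin and laminin genes had lower intensities in Rosa26-Foxm1 lung. Of the 24 measured members, 20 had a log2 difference (Rosa26-Foxm1 minus wild type) below 0 and 4 above, and the median was -0.29. The 20 include Itgb3bp, whose values were equal to the digits printed and which was at 0.03 with loess scaling. Of all 9518 measured genes, 56.0% were below 0, and the median was -0.06. Taking 1.5-fold as the size of interest, 6 of the 24 members were lower, against 8.46% of all measured genes. These were the leukocyte chain Itgal, the matrix receptors Itga8 and Itgb5, the laminin chains Lamb1 and Lamb2, and nidogen 2 (Nid2). Lamb2 fell short of that size with division by the array median (-0.45) or loess (-0.56), and Itgb5 (-0.51) and Nid2 (-0.52) after correction for gene length. A single member, the laminin chain Lama2, was at least 1.5-fold higher, which is 4.17% of the members against 7.10% of all genes. In wild-type lung Lama2 did not reach the floor, so it counts as measured only through the array on which it was brighter. In all, 13 of the 24 members (54.2%) differed by more than the probe SD, against 42.8% of all measured genes.

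**Figure D1:**
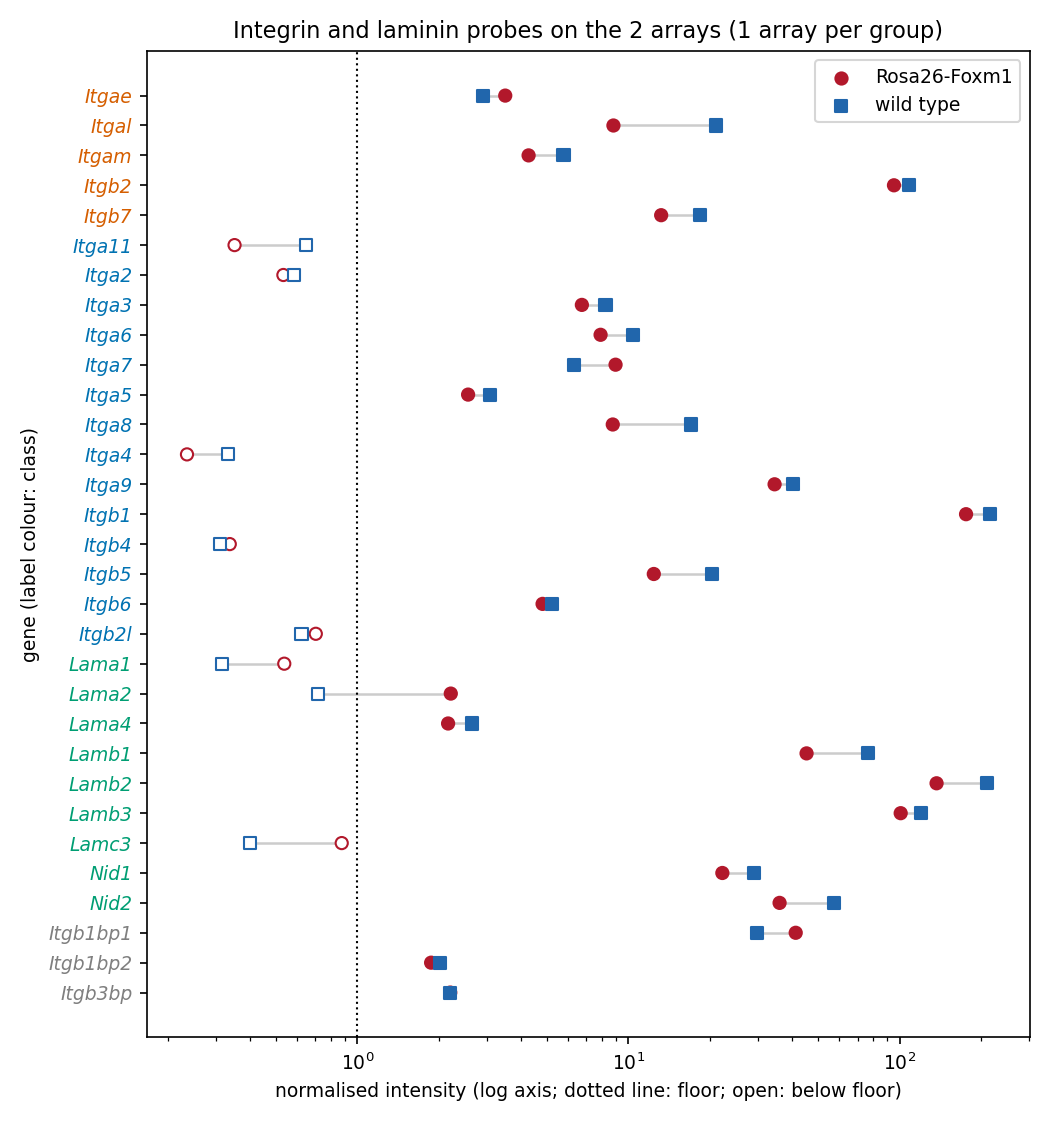
Normalised intensity (horizontal log axis) of the single probe of each of the 31 members (rows), with circles for the Rosa26-Foxm1 array and squares for the wild-type array, and open symbols for values below the floor of 1.00 (dotted line). The circle lies left of the square for most filled pairs, with the widest filled gap in Itgal at 8.80 against 21.0.

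Of the 5 leukocyte integrins, 4 had lower values in Rosa26-Foxm1 lung, and the median of their log2 differences was -0.43. Itgal encodes the alpha L chain of LFA-1, the receptor by which lymphocytes and other leukocytes hold to ICAM-1. Its normalised intensity was 8.80 in Rosa26-Foxm1 lung and 21.0 in wild-type lung, and the deposited intensities behind these were 8.75 and 20.8. That is a 2.38-fold lower value, a log2 difference of -1.25, and 0.620% of all measured genes lay lower still. At the 2-fold size, which 1.51% of all measured genes passed downward, Itgal was the only member that was lower.

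The partner chain of Itgal did not follow it by the same amount. Itgb2, the beta chain shared by LFA-1 and by the complement receptor Mac-1, had 95.4 in Rosa26-Foxm1 lung and 108 in wild-type lung, a log2 difference of -0.18, which is within the probe SD. The log2 difference of Itgal minus that of Itgb2 was -1.07, larger in size than the error of 0.44 that the probe SD gives for 2 probes. How many pairs of unrelated genes lie further apart than this was not counted. Itgam, the alpha M chain of Mac-1 on neutrophils and macrophages, had 4.28 against 5.76 in wild-type lung (-0.43), and it lay within that error of Itgb2.

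Itgb7 and Itgae form the receptor by which intraepithelial lymphocytes and some dendritic cells bind E-cadherin. Their probes lay on opposite sides of 0. Itgb7, which also pairs with the alpha 4 chain, had 13.2 in Rosa26-Foxm1 and 18.3 in wild-type lung (-0.47). Itgae had 3.51 in Rosa26-Foxm1 and 2.91 in wild-type lung (0.27), which is within the probe SD. The log2 difference of Itgae exceeded that of Itgb7 by 0.73, against an error of 0.44. Itga4, the alpha 4 chain, was below the floor on both arrays, at 0.235 in Rosa26-Foxm1 and 0.332 in wild-type lung, and has no fold.

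Markers of the white blood cells that carry these integrins did not all lie on the same side of 0. Of all measured genes, 56.0% were below 0 and 43.9% above. Of 7 measured general leukocyte markers, 4 (57.1%, near that share) were below 0. Their median was -0.12, with a summed intensity of 320 in Rosa26-Foxm1 against 324 in wild-type lung. Among them Ptprc, the CD45 phosphatase of all leukocytes, was the lowest at 1.35 against 2.71 (2.01-fold lower), and Cd52 the highest at 76.5 against 61.8 (0.31). For T and NK cells the median was -0.28 over 10 measured markers (6 below 0, summed intensity 97.9 against 90.9 in wild-type lung), with Cd4 below the floor on both arrays. With a 75th percentile floor the T and NK cell median turned to 0.24 (4 markers) and the general leukocyte median to 0.07 (6 markers). For neutrophils it was -0.41 over 9 markers (7 below 0, 568 against 767), and -0.23 with division by the array median. For macrophages it was 0.43 over 11 markers (8 above 0, 1132 against 696), from Siglecf at -1.26 to Gpnmb at 4.42. For dendritic cells it was -0.03 over 10 markers (100 against 96.9), and 0.01 with loess scaling. For B and plasma cells it was -0.07 over 7 markers (4 below 0, 481 against 126), from Cr2 at -1.62 to Jchain at 3.06. The part of any of these cells in the values of the leukocyte integrins was not tested.

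The other integrin subunits were lower by a similar amount. Of 14, 9 were measured and 8 of these were below 0, against 56.0% of all measured genes, with a median of -0.29. At least 1.5-fold lower were 2 of the 9 (22.2%), against 8.46% of all measured genes. The furthest was Itga8, the alpha chain of the nephronectin receptor of fibroblasts and smooth muscle, with 8.75 in Rosa26-Foxm1 and 17.0 in wild-type lung (1.95-fold lower, -0.96). Of all measured genes, 1.77% lay below it. Npnt, which encodes nephronectin, its ligand, was 1.97-fold lower (-0.98), with 3.94 in wild-type lung. The other was Itgb5, the beta chain of the alpha V beta 5 receptor for vitronectin, with 12.4 against 20.3 in wild-type lung (1.64-fold lower, -0.71). Vitronectin itself (Vtn) was 2.05-fold lower (-1.04), with 5.36 in Rosa26-Foxm1 lung.

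Itgb1, the beta chain shared by most matrix-binding integrins, had 176 in Rosa26-Foxm1 and 215 in wild-type lung. Its log2 difference of -0.29 is within the probe SD of all pairs (0.31) but past that of brighter pairs (0.23). With division by the array median it was -0.12. Several of its alpha partners lay close to it. The fibronectin receptor chain Itga5 had 2.56 against 3.08 in wild-type lung (-0.27). The laminin receptor chain Itga3 had 6.73 against 8.23 (-0.29), and Itga6, another laminin receptor chain, had 7.89 against 10.4 (-0.40). Itga9, a receptor chain for tenascin C and other ligands, had 34.6 against 40.5 (-0.23). These 4 chains lay within the error of 0.44 of Itgb1.

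A pair of alpha chains lay further from Itgb1 than the error of 0.44, in opposite directions. The log2 difference of Itga8 minus that of Itgb1 was -0.68. For Itga7, the laminin receptor chain of muscle, that value was 0.79, and its probe had 8.96 in Rosa26-Foxm1 and 6.30 in wild-type lung (1.42-fold higher, 0.51), just short of the 1.5-fold size. Of the 9 measured subunits outside the leukocyte group it was the only one above 0.

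The beta chains of epithelium were close to 0 or dim. Itgb6, the beta chain of the alpha V beta 6 receptor that activates latent TGF-beta on epithelium, had 4.82 in Rosa26-Foxm1 and 5.22 in wild-type lung (-0.12), within the probe SD. Itgb4, the hemidesmosome chain that pairs with alpha 6, was below the floor on both arrays, as were the collagen receptor chains Itga2 and Itga11 and the beta 2-like gene Itgb2l. Their intensities ran from 0.338 to 0.702 in Rosa26-Foxm1 lung and from 0.312 to 0.648 in wild-type lung, and no fold is given for them.

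**Figure D2:**
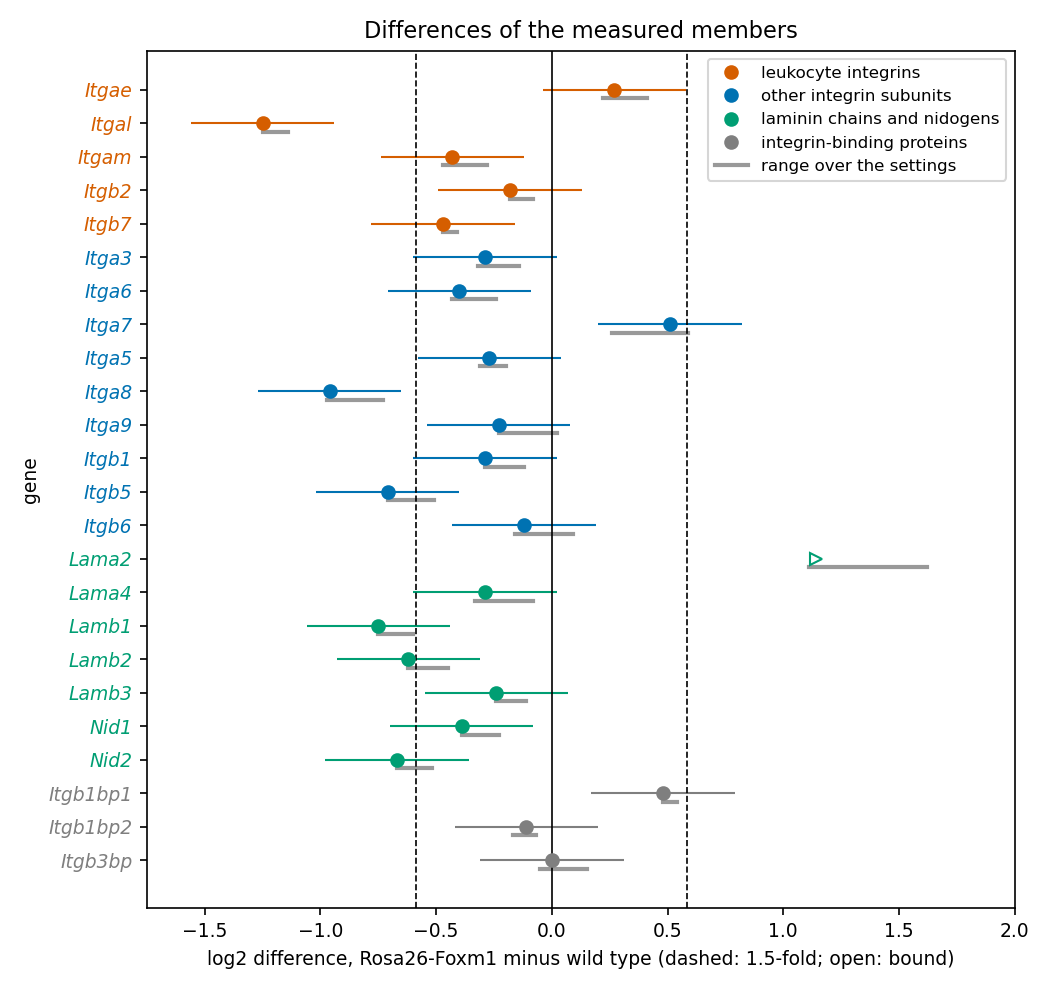
Log2 difference (horizontal axis, Rosa26-Foxm1 minus wild type) of the 24 measured members (rows), coloured by class, with horizontal bars of the probe SD (0.31), dashed lines at 1.5-fold and grey lines for the range over the processing settings in which the gene was measured. Itgal at -1.25 and Itga8 at -0.96 lie furthest left, and the open triangle is the lower bound of Lama2 at 1.14.

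In the laminin sheet, Lamb1, Lamb2 and Nid2 were at least 1.5-fold lower and Lama2 was higher. That is 42.9% and 14.3% of the measured laminin chains and nidogens, against 8.46% and 7.10% of all measured genes. Of 9 genes of laminin chains and nidogens, 7 were measured and 6 of these (85.7%) were below 0, against 56.0% of all measured genes. The median was -0.39 (-0.62 with a 75th percentile floor and -0.23 after correction for gene length). Lamb1, the beta 1 chain of most laminins of early and vascular basement membranes, had 45.4 in Rosa26-Foxm1 and 76.4 in wild-type lung (1.68-fold lower, -0.75). Lamb2, the beta 2 chain found in vessels and smooth muscle, had 137 against 211 (1.53-fold lower, -0.62). Both were lower by more than the probe SD, and they lay within the error of each other. Lamb3, the beta chain of the laminin that anchors epithelium, had 101 in Rosa26-Foxm1 and 120 in wild-type lung (-0.24). That is within the probe SD of all pairs and just past that of brighter pairs (0.23), and it was -0.14 with division by the array median. The log2 difference of Lamb1 minus that of Lamb3 was -0.51, against an error of 0.44.

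The laminin alpha chains measured were Lama4 and Lama2, the latter through the brighter array alone, so its direction followed from the floor. Lama4, an alpha chain of endothelial laminins, had 2.16 in Rosa26-Foxm1 and 2.64 in wild-type lung (-0.29), within the probe SD. Lama2, the alpha chain of laminins around muscle and of mesenchyme, had 2.21 in Rosa26-Foxm1 lung and 0.716 in wild-type lung, under the floor, so that it was at least 2.20-fold higher. It was the 1 member past 2-fold upward, a size that 1.99% of all measured genes passed. Among measured genes as dim as Lama2 (mean intensity under 5), 11.2% were at least 1.5-fold higher. Lama1 and Lamc3 were below the floor on both arrays, at 0.537 and 0.875 in Rosa26-Foxm1 and at 0.317 and 0.400 in wild-type lung.

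Nid2 had 36.1 in Rosa26-Foxm1 and 57.3 in wild-type lung (1.59-fold lower, -0.67), and Nid1 had 22.2 against 29.1 (1.31-fold lower, -0.39). Both nidogens were lower by more than the probe SD, and the log2 difference of Nid2 minus that of Nid1 was -0.27, within the error of 0.44.

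Of the 3 integrin-binding genes, 1 differed by more than the probe SD. Itgb1bp1, whose product ICAP-1 binds the beta 1 tail and holds the integrin inactive, had 41.4 in Rosa26-Foxm1 and 29.7 in wild-type lung (1.39-fold higher, 0.48). Itgb1bp2, the muscle chaperone melusin, had 1.87 against 2.02 (-0.11). Itgb3bp, a protein now best known as a subunit of the kinetochore, had 2.20 on both arrays.

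Promoter sequence is shown for members at least 1.5-fold lower with an entry in the RefSeq promoter table used here (Itga8, Itgb5, Lamb1 and Lamb2). It is also shown for the leukocyte chain Itgam, which was lower by less than that size (-0.43). Each run is the 250 bases upstream of the annotated gene start in GRCm38.p6, written 5′ to 3′ on the strand of the gene. Capitals mark the GC box core GGGCGG, to which SP1 and its relatives bind, and the PU box core GAGGAA, to which PU.1 and other Ets factors bind, each on either strand (as CCGCCC and TTCCTC on the other), and no marked runs overlap. The windows are chr2:12301945-12302194 (minus strand) for Itga8, chr16:33829415-33829664 (plus strand) for Itgb5, chr12:31265043-31265292 (plus strand) for Lamb1, chr9:108479612-108479861 (plus strand) for Lamb2 and chr7:128062390-128062639 (plus strand) for Itgam.
Itga8: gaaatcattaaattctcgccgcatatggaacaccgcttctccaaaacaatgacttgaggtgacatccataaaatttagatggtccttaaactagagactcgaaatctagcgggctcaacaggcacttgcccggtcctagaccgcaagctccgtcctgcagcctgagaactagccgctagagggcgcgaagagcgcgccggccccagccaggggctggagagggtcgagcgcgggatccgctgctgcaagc
Itgb5: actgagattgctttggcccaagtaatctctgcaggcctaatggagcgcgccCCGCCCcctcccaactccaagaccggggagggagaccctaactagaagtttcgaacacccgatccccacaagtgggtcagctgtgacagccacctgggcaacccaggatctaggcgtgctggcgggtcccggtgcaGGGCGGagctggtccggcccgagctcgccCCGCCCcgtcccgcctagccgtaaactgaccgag
Lamb1: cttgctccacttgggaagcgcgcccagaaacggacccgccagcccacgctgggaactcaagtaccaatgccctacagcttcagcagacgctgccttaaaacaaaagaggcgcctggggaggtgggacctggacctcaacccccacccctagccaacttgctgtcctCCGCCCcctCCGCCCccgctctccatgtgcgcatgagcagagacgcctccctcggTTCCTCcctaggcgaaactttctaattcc
Lamb2: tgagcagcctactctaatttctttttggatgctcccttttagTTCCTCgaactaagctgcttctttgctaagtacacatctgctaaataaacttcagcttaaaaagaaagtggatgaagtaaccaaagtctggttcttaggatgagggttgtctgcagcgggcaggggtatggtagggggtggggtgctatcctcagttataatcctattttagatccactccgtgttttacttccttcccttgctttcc
Itgam: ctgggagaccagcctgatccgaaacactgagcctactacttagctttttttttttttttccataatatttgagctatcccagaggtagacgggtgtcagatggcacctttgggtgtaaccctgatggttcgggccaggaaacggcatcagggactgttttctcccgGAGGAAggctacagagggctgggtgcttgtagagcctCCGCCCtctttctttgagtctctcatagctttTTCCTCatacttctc

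The marked motifs differed among these promoters. The Itga8 window held neither marked motif, the Itgb5 window held 3 GC boxes, Lamb1 2 GC boxes and 1 PU box core, Lamb2 1 PU box core, and Itgam 2 PU box cores and 1 GC box. Their base composition ran from 43.6% G and C in Lamb2 to 65.2% in Itgb5, around a median of 52.4% over all 32851 windows. Of the members, 20 had at least 1 window, 23 windows in all. The forkhead core TAAACA was in 2 of the 23 windows (1 of Itgb6 and 1 of Lamb3) and in 12.0% of all windows. It was in none of the windows printed. The PU box core was in 12 of the 23 windows and in 23.3% of all, the GC box in 9 of 23 and in 32.7% of all, and the AP-1 site TGANTCA in none of the 23 and in 6.75% of all. A match is a description of the letters, and its absence says nothing of the factor.

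Genes that work beside integrins and laminins were lower too. Of 28 other basement membrane genes and laminin receptors with a probe, 25 were measured and 22 of these were below 0. The share of all measured genes below 0 was 56.0%. At least 1.5-fold lower were 9 (36.0%) and none was higher, against 8.46% and 7.10% of all measured genes. The median of this list was -0.30, and its gene Npnt is also on the list of integrin ligands. Col4a3, a chain of the alveolar type IV collagen, had 2.13 in wild-type lung and was under the floor in Rosa26-Foxm1 lung at 0.747 (at least 2.12-fold lower). It is among the 9 and counts as measured only through the array on which it was brighter, so its direction followed from the floor. Beside Npnt, the next lowest was Smoc2 (-0.82). Col4a1 and Col4a2, the chains of the common type IV collagen, had 128 and 47.4 in Rosa26-Foxm1 lung and 194 and 81.2 in wild-type lung (-0.60 and -0.78). The laminin receptors dystroglycan (Dag1, 12.2 against 19.3 in wild-type lung, -0.67) and Bcam (87.2 against 134, -0.62) were also past 1.5-fold. At the other end of this list were Tinag at 0.35 and the syndecan Sdc4 at 0.34.

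Of 22 measured integrin adaptors and membrane partners, 17 (77.3%) were below 0, against 56.0% of all measured genes. Their median was -0.34. Of these 22, 4 (18.2%) were at least 1.5-fold lower and 1 (4.55%) higher, against 8.46% and 7.10% of all measured genes. Vinculin (Vcl), which ties talin to actin, had 23.4 in Rosa26-Foxm1 and 53.4 in wild-type lung (2.28-fold lower, -1.19). Kank2, a talin-binding protein, was at 7.39 against 19.6 (-1.41), and the adaptor Lims2 at 27.5 against 44.8 (-0.71). Talin 1 (Tln1), which activates integrins, had 61.6 against 93.3 (-0.60). Parvg, the parvin of blood cells, was the 1 gene at least 1.5-fold higher, at 5.32 against 3.46 (0.62). The kindlins differed by -0.48 for the widespread Fermt2 and by -0.13 for Fermt3 of blood cells.

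Integrin ligands and counter-receptors were less uniform, with 16 of 23 measured (69.6%) below 0, against 56.0% of all measured genes. Their median was -0.16. Of these 23, 5 (21.7%) were at least 1.5-fold lower and 4 (17.4%) higher, against 8.46% and 7.10% of all measured genes. Beside Vtn and Npnt, the matricellular protein periostin (Postn, -0.81) was among the lowest. Thy1, a ligand of several integrins, had 2.06 in Rosa26-Foxm1 lung and 0.931, under the floor, in wild-type lung (at least 2.06-fold higher). It is among the 4 higher genes and counts as measured only through the brighter array, so its direction followed from the floor. The fibrinogen chain Fgg was at 0.69 and tenascin C (Tnc) at 0.67. Icam1, the counter-receptor of LFA-1, had 17.2 against 19.2 in wild-type lung (-0.16). The log2 difference of Itgal minus that of Icam1 was -1.10, against an error of 0.44.

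**Figure D3:**
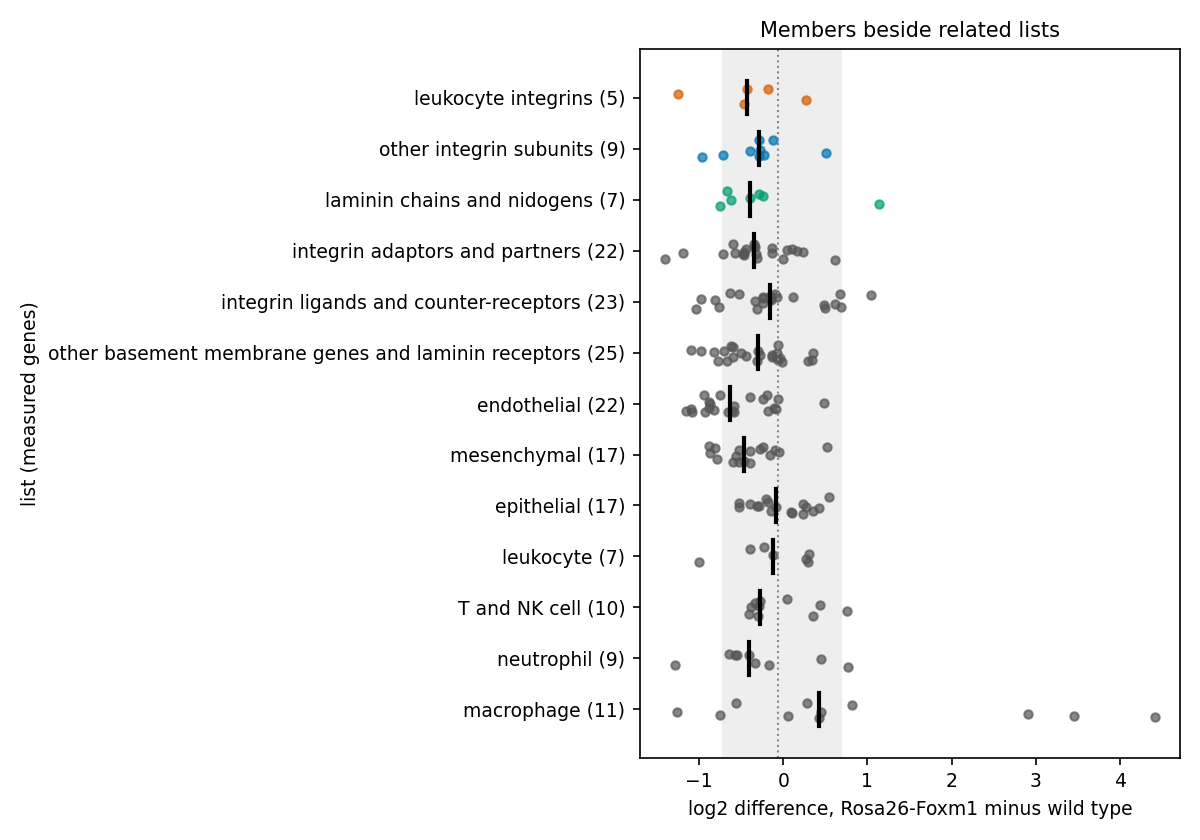
Log2 difference (horizontal axis, Rosa26-Foxm1 minus wild type) of each measured gene (points) of the member classes, of related gene lists and of cell type markers (rows, number measured in brackets), with black bars for medians. The grey band runs from -0.72 to 0.69, the 5th to 95th percentile of all 9518 measured genes, and the dotted line is their median of -0.06. The endothelial bar at -0.63 and the mesenchymal bar at -0.46 lie left of the 3 member classes.

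Endothelial and mesenchymal markers were lower beside these genes, and epithelial markers lay on both sides of 0. The lists share genes. Col1a1, Col1a2, Col3a1 and Postn are mesenchymal markers, Vwf is endothelial and Cdh1 epithelial, and all are also on the list of integrin ligands. Endothelial markers stood at a median of -0.63 over 22 genes, 21 of them below 0, against 56.0% of all measured genes. Their summed intensity was 2320 in Rosa26-Foxm1 against 3616 in wild-type lung. Erg, among the 21, was under the floor in Rosa26-Foxm1 lung at 0.786 and counts as measured only through the wild-type array. Pecam1 had 156 against 329 (-1.08). Mesenchymal markers stood at a median of -0.46 over 17 genes, 16 below 0, with a summed intensity of 1448 against 1798, and Cnn1 below the floor on both arrays. Epithelial markers stood at -0.09 over 17 genes, 9 below 0 and 8 above (median 0.12 with division by the array median), with a summed intensity of 5999 against 7655, and the basal cell genes Krt5 and Trp63 below the floor on both arrays. The part of these cells in the laminin and integrin values was not tested.

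The leukocyte integrins and the remaining members did not stand far apart. Their medians were -0.43 over 5 genes and -0.29 over 19 genes, a gap of -0.14, less in size than the probe SD of a single gene. The spread within each class was wider, running over -1.25 to 0.27 for the leukocyte integrins and over -0.96 to 1.14 for the rest.

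The lower members were not dim. All 6 that were at least 1.5-fold lower had a mean intensity of 5 or more, where the log2 differences of all genes spread less than among dimmer ones. Of 13 members with a mean intensity of 5 to 50, 4 were at least 1.5-fold lower, against 6.37% of all genes in that range. Of 5 members at 50 and over, 2 were, against 6.57% of all genes there. None of 6 dimmer members was, against 12.2% of the genes under 5. No member at 5 or more was at least 1.5-fold higher, against 5.01% of all genes at 5 to 50 and 4.57% at 50 and over.

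**Figure D4:**
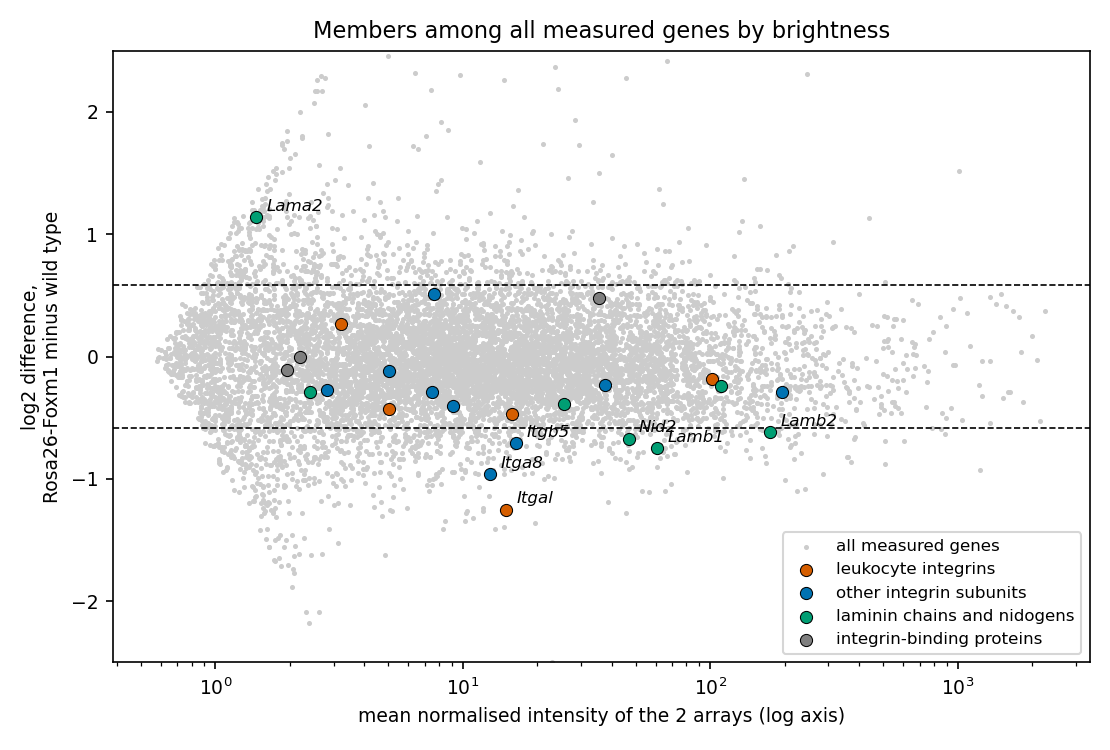
Log2 difference (vertical axis, Rosa26-Foxm1 minus wild type) against mean normalised intensity of the 2 arrays (horizontal log axis) for all measured genes (grey) and the 24 measured members (coloured by class), with dashed lines at 1.5-fold. The members past 1.5-fold are named, and 21 genes beyond the vertical axis are not drawn. Lamb2, Lamb1, Nid2, Itgb5, Itga8 and Itgal lie below the lower line at intensities above 5, and Lama2 above the upper line near the dim end.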

How the data were processed

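Pooled lung RNA (left lobes, 3 mice) was measured on 1 array per genotype. Per the labels' protocols, cRNA was labelled with digoxigenin using a kit of Applied Biosystems. The authors deposited linear probe intensities with a median of 1.00 on both arrays, so already scaled, and the sources used here do not say how background was handled. Of 33012 probes, 14411 were named by 1 gene of the platform annotation, 247 by several and not used, and symbols were updated by gene ID to RefSeq of GRCm38.p6 (13832 of 13840 genes matched).

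Intensities were quantile normalised, floored at the 50th percentile of an array and put on the log2 scale. The probe of highest mean stood for a gene. A fold against a value below the floor is a lower bound. A gene above the floor on a single array takes its direction from that array. Every measured member was named, and of each related list the genes past 1.5-fold, up to 3 an end, and otherwise the ends, with partners, ligands and cell type markers added after their values were seen. No test was possible, and precision is limited by the number of arrays. The members and lists were chosen with earlier results of these data known. Alternatives were division by the array median, loess (span 0.3), floors at the 25th and 75th percentile and none, the median over probes, and correction for genomic gene length. The steps were tested on simulated data with large differences planted in brighter genes, which does not check values near the floor or small differences. Python 3.11.15, pandas 2.3.3 and statsmodels 0.14.6 were used.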

Additional observations from a re-analysis of the deposited data

How the results depend on the processing

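No paired analysis was possible because each group has 1 array. Medians of the leukocyte integrins ran from -0.47 to -0.28 and those of the other integrin subunits from -0.31 to -0.19 over the 7 alternatives, all below 0, and the gap between leukocyte integrins and the remaining members from -0.17 to -0.07. For laminin chains and nidogens the median of -0.39 moved to -0.62 with a 75th percentile floor (5 genes measured) and -0.23 after correction for gene length. The count of members at least 1.5-fold higher, 1 in the main setting, became 2 with a 25th percentile floor (Lama2 and Lamc3), 0 with the floor at the 75th (Lama2 no longer measured) and 2 after correction for gene length (Lama2 and Itga7, at 0.59). The count lower, 6, ran from 4 to 7. It was 5 with division by the array median and with loess, where Lamb2 was at -0.45 and -0.56, and 4 with correction for gene length, where Itgb5 was at -0.51 and Nid2 at -0.52; the cause was not tested. Itgal, Itga8 and Lamb1 were past 1.5-fold lower in all 7. Without a floor Lama2 was at 1.62. Itga9 (0.02), Itgb6 (0.09) and Itgb3bp (0.15) were above 0 after correction for gene length.

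Over all measured genes, 676 were higher and 805 lower at the 1.5-fold size, against 1361 and 1548 with the floor at the 25th percentile, 238 and 289 with it at the 75th, and 745 and 594 after correction for gene length. The median of integrin adaptors moved to -0.20 with division by the array median and to -0.23 after correction for gene length. That of other basement membrane genes moved to -0.15 after correction for gene length and that of ligands to -0.28 with a 75th percentile floor. Mesenchymal markers moved to -0.37 with division by the array median, where the leukocyte integrins, at -0.45, were lower. Neutrophil markers moved to -0.55 after correction for gene length. Marker medians changed sign in these cases. With the floor at the 75th percentile, leukocyte markers were at 0.07, dendritic cell 0.13, T and NK cell 0.24, B and plasma cell 0.03 and mast cell 0.11. Dendritic cell markers were at 0.01 with loess and 0.09 after correction for gene length, and epithelial markers at 0.12 with division by the array median and 0.09 with the floor at the 25th percentile. In the main setting B and plasma cell markers were at -0.07 (single genes from -1.62 to 3.06), mast cell markers at -0.77, platelet markers at 0.30 and proliferation genes at 0.57. Proliferation genes moved to 0.17 with a 75th percentile floor (2 genes measured), platelet markers to 0.18 after correction for gene length, and mast cell markers to -0.31 with a 25th percentile floor and -0.07 as the median over probes.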
